A study of Mus musculus with 52 samples.

Results

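Promoter sites with CTCF and cohesin were taken from the autosomes of female mouse embryonic fibroblasts (MEFs). A site was a peak of the wild-type (wt) CTCF list on chromosomes 1 to 19 that shared at least 1 bp with a peak of the wt Rad21 list, and whose midpoint lay within 1 kb of the 5′ end of a protein-coding gene. The rule gave 4328 sites of 58231 autosomal CTCF wt peaks and of 60204 peaks in the whole list. Of the 39365 autosomal CTCF wt peaks with a Rad21 peak, 20079 others had their midpoint in a gene body and 14958 lay between genes, and these served for comparison. The sites were therefore chosen by their presence in both wt lists, and presence in those lists is not a result.

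CTCF is a zinc finger protein that binds DNA at a long, oriented motif. Cohesin, a ring complex with Rad21 as its closing subunit, extrudes chromatin loops and is halted where CTCF is bound. At gene starts the pair can anchor contacts of a promoter with distant sequence, but cohesin is also loaded or retained at active promoters, many of which are CpG islands with open chromatin.

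The study measured CTCF and Rad21 by chromatin immunoprecipitation and sequencing (ChIP-seq) in clonal MEF lines from embryos of an FVB by castaneus intercross, whose autosomes are a mosaic of both strains. The wt lists came from 1 clone (Wt2A1), and the germline mutant (mut) lists from 1 clone (Mut5A6) homozygous for the SmcHD1 null allele MommeD1. The somatic knockout (somKO) lists pooled 2 clones (A3-3 and D4) in which SmcHD1 had been removed with CRISPR/Cas9 from another wt clone (wt1A2). A difference between genotypes can therefore not be told apart from a difference between clones. All 3 genotypes were XX fibroblasts, and reads of both alleles were pooled. Chromatin was fixed with formaldehyde alone for CTCF, and with EGS before formaldehyde for Rad21 and SmcHD1.

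Each group had 1 list, called on merged libraries. The CTCF lists merged 3 wt, 3 mut and 4 somKO libraries, and the Rad21 lists 2, 2 and 4 of them. The lists held 60204, 57798 and 69736 CTCF peaks and 67655, 66031 and 89974 Rad21 peaks. Depth is unknown, and with a single list a group the spread of replicates cannot be seen, so that no test was run. Shares are given with 95% Wilson intervals, which cover counting error only, and the spread over 19 autosomes stands beside the main ones. The rank of a peak is its percentile by score within its own list, where 100 is the highest. All comparisons with mut and somKO share the wt lists.

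Sequences from 10 sites are printed here, because the exact CTCF core was less frequent at promoter sites (20.0%) than at gene-body (45.1%) and intergenic sites (45.5%). Each is 120 bases of the plus strand of mm10, read 5′ to 3′, and centred on the core where there was one and on the peak midpoint otherwise. The first 3 are at the sites with the highest wt CTCF score. They lie at chr5:129724999-129725118 (Nipsnap2), chr9:44881509-44881628 (Kmt2a) and chr5:77407821-77407940 (Igfbp7), and none held the core, so that capitals mark CG dinucleotides. They held 17, 11 and 17 CG dinucleotides.

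Nipsnap2: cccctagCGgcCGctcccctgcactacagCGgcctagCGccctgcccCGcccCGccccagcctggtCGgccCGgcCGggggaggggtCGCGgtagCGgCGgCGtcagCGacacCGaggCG

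Kmt2a: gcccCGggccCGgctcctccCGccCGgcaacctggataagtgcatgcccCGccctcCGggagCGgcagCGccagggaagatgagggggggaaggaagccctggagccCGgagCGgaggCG

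Igfbp7: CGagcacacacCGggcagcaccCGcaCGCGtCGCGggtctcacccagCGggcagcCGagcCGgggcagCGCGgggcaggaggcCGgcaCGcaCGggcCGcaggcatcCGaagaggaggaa

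The next 4 are at sites that had no peak in mut lists. Slitrk6 (chr14:110755193-110755312) was the single site absent from all 4 mut and somKO lists. Sssca1 (chr19:5730910-5731029), Zic1 (chr9:91365855-91365974) and Nuggc (chr14:65597873-65597992) had no CTCF or Rad21 peak in mut and both in somKO. Capitals mark CG dinucleotides in the first 3, which had no core, and the core, on the minus strand, at Nuggc. The counts of CG were 1 at Slitrk6, 2 at Sssca1, 20 at Zic1 and 2 at Nuggc.

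Slitrk6: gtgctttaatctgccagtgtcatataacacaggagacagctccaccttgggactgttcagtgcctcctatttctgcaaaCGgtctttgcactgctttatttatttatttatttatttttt

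Sssca1: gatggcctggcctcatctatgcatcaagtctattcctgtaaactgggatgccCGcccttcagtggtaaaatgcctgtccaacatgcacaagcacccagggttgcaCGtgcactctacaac

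Zic1: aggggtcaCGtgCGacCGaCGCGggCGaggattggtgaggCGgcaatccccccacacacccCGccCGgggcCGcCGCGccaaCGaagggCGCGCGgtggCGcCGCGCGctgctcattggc

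Nuggc: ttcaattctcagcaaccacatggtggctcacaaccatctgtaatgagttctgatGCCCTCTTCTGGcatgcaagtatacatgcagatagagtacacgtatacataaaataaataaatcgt

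The last 3 are at some of the loop machinery genes whose site held the core, in capitals: Smc3 (chr19:53599855-53599974) and Smc5 (chr19:23274622-23274741) with the core on the plus strand, and Ctcf itself (chr8:105636990-105637109) with the core on the minus strand. The site at Esco1 also held the core, on the minus strand, and is not printed.

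Smc3: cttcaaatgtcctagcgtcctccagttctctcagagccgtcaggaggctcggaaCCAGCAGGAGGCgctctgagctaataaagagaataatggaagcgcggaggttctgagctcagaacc

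Smc5: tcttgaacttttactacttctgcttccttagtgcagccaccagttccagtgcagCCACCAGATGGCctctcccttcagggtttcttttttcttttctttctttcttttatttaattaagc

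Ctcf: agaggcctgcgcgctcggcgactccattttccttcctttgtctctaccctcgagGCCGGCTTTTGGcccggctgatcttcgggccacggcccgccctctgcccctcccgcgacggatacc

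Promoter CTCF peaks carried cohesin more often than other CTCF peaks. Of 5014 CTCF wt peaks at promoters, 86.3% (85.3 to 87.2) had a Rad21 wt peak, against 65.0% (64.5 to 65.5) in gene bodies and 67% (66.4 to 67.6) between genes. The 686 promoter peaks without Rad21 ranked low, with a median CTCF percentile of 24.5, against 55.6 for the 4328 with Rad21. The Rad21 peaks at promoters were also wide: the widest one overlapping a site had a median width of 1262 bp, against 769 bp in gene bodies and 802 bp between genes, and a wide peak is met more easily. The CTCF peaks themselves were of similar width in the 3 places, with medians of 546, 576 and 593 bp.

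The sites lay near 4488 of 20780 autosomal protein-coding gene symbols, or 21.6% (21 to 22.2). Of these genes, 4230 had 1 site, 256 had 2 and 2 had 3. Most sites (3920, 90.6%) were within 1 kb of a single start, and 362 (8.36%) were within 1 kb of starts on both strands. The midpoint fell in an annotated exon at 1720 sites, in an intron at 1168 and outside genes at 1440. Chromosomes held between 131 sites (chromosome 18) and 422 (chromosome 11).

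At the 1 kb limit, the sites just inside were at Pcgf1 and Clpp (both at 1000 bp) and Sirt7 (999 bp), with wt CTCF percentiles of 83.8, 30.4 and 87.2. Just outside, each by 1 bp, were Tmem127, Alad and Atmin, with percentiles of 41.3, 29.9 and 17.3. The wt Rad21 percentiles were 86.1, 54.8 and 90.9 inside, and 41.1, 76.9 and 78.1 outside.

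Promoter sites were gathered at the top of the CTCF ranking and spread about evenly over the rest of it, whereas gene-body and intergenic sites were few in its lower part. The lowest 10% of the CTCF wt list held 9.77% of promoter sites, against 3.77% of gene-body and 3.48% of intergenic sites. The highest 10% held 19.5%, against 14.1% and 14.9%. Their median percentile was 55.6, with quartiles at 25 and 84.7, against medians of 65.1 and 67.4 in the other places. When all autosomal sites with CTCF and Rad21 were divided into 4 equal parts by CTCF rank, at percentiles of 43.3, 65.3 and 83.2, the promoter sites fell into them as 1713, 785, 687 and 1143. These 4 parts are called quartiles here, from the lowest rank (1) to the highest (4).

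**Figure D1:**
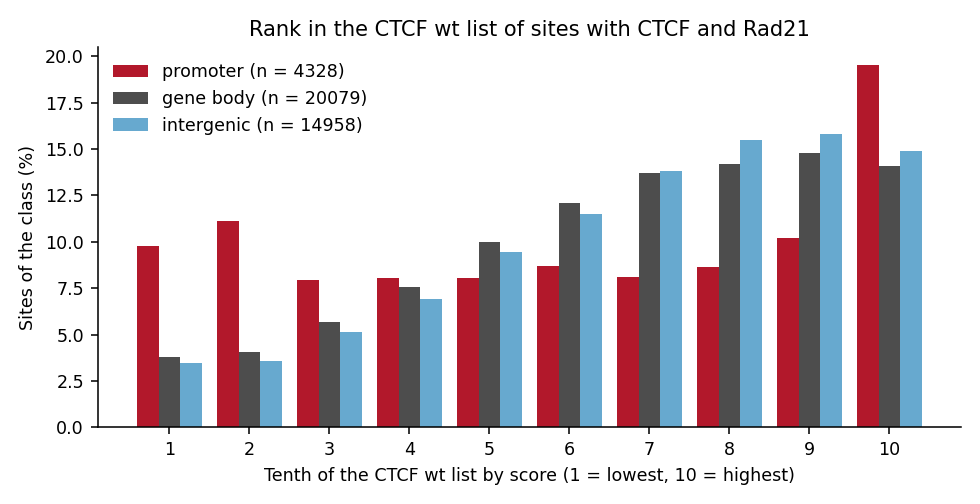
Percentage of sites (y axis) in each of 10 equal parts of the CTCF wt list by score (x axis, 1 is the lowest) for promoter, gene-body and intergenic sites with CTCF and Rad21. Bars are shares of each class, and promoter sites stand above the others in the lowest part (9.77%) and in the highest (19.5%).

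Within CTCF quartiles the places differed in wt Rad21 rank. The division was by CTCF rank, so that a larger fall of CTCF than of Rad21 follows from it in every place. CTCF was read from the site's own peak, and Rad21 from the highest overlapping one. In the lowest CTCF quartile the median wt Rad21 percentile was 54.5 at promoters, against 47.6 in gene bodies and 47.6 between genes, although the median CTCF percentile there was lower at promoters (18.8 against 27.8 and 27.8). In the highest quartile the order of Rad21 was the opposite, with medians of 83.8 at promoters, 89.5 in gene bodies and 90.9 between genes. Rad21 peaks over the lowest quartile had a median width of 1262 bp at promoters, 440 bp in gene bodies and 418 bp between genes.

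The sequence under promoter sites differed from that under other sites. Over 300 bp around the midpoint the median GC content was 61.2%, against 45.7% in gene bodies and 45% between genes, and the median ratio of observed to expected CpG was 0.692, against 0.203 and 0.199. Windows with a GC content of at least 55% and a CpG ratio of at least 0.6 are called island-like here. They made up 53.5% (52.0 to 54.9) of promoter sites, 3.52% of gene-body sites and 1.17% of intergenic sites. In windows centred on the starts of all 20807 autosomal protein-coding genes the share was 46.3% (45.6 to 47.0), nearer to the promoter sites than to the others. Among promoter sites the island-like share was 69.6% (67.4 to 71.7) in the lowest CTCF quartile, 51% and 40.8% in the middle ones, and 38.7% (35.9 to 41.5) in the highest.

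The exact core CCANNAGNNGGC, the most constant letters of the CTCF motif, was searched on both strands over 1 kb around the midpoint. It was found at 20.0% (18.8 to 21.2) of promoter sites, against 45.1% of gene-body sites, 45.5% of intergenic sites and 7.21% (6.87 to 7.57) of windows of the same length around all gene starts. From the lowest to the highest CTCF quartile the share at promoters was 12.3%, 19.4%, 29.4% and 26.2%, whereas it stayed between 41.6% and 47.9% in gene bodies. The core is strict, and no match says only that these letters were not in the window. Of 838 promoter sites with cores on 1 strand, 447 (53.3%, 50.0 to 56.7) had it on the strand of the gene.

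Other short motifs were searched over 300 bp on both strands. GGGGCGGGG, a binding site of SP1, was at 8.23% (7.44 to 9.08) of promoter sites, 0.936% of gene-body sites and 14.7% of all gene starts. GCGCNTGCGC, which NRF1 binds, was at 2.68% of promoter sites, 0.264% of gene-body sites and 6.28% of gene starts. AAGATGGC, from the YY1 motif, was at 2.84%, 3.11% and 3.55% of the same classes. ACTACA, a part of the ZNF143 motif, was at 7.88%, 13.2% and 9.44%. Matches of different motifs may overlap, and the YY1 letters fit the end of the CTCF core. None of these 4 motifs was more frequent at promoter sites than at gene starts in general. The windows were unlike, however: those of genes were centred on the start, and those of promoter sites on the peak midpoint. That midpoint lay a median of 343 bp from the start.

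Position relative to the start went with rank and with the core. Of the sites, 1983 (45.8%, 44.3 to 47.3) lay upstream of the nearest start. Upstream sites had a median CTCF percentile of 72.4 and held the core in 26.3% of cases, whereas the 2345 at or downstream of the start had a median of 41.8 and a core in 14.6%. The median CTCF percentile was 75.7 from 250 to 100 bp upstream and 36.8 from 100 to 250 bp downstream. Rad21 differed less between these bins, with medians of 70.3 and 58.4. The core was found at 37.0% (33.3 to 40.9) of sites from 1000 to 500 bp upstream and at 11.5% (9.06 to 14.4) from 100 to 250 bp downstream. GC content moved with position as well, from a median of 47.7% in the farthest upstream bin to 69.3% from 100 to 250 bp downstream.

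**Figure D2:**
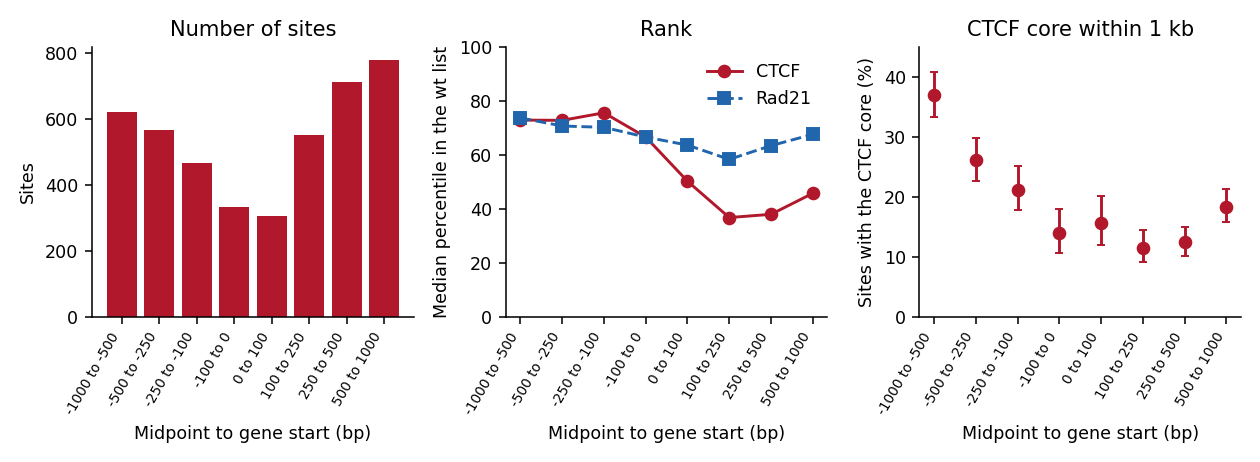
Promoter sites by distance of the peak midpoint from the nearest gene start (x axis, bp, negative is upstream): number of sites, median percentile of CTCF and Rad21 in the wt lists, and percentage of sites with the CTCF core within 1 kb with 95% Wilson intervals. The bins differ in width, and CTCF rank falls from 75.7 before the start to 36.8 after it.

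To ask what became of the sites without SmcHD1, each CTCF wt interval was searched for in the other lists, and a site was called present where at least 1 bp was shared with a peak. Of the promoter sites, 3907 of 4328 (90.3%, 89.4 to 91.1) had a peak in all 4 of the CTCF mut, CTCF somKO, Rad21 mut and Rad21 somKO lists, where 80% of all autosomal sites with CTCF and Rad21 did. The share was 79% (78.4 to 79.5) in gene bodies and 78.5% (77.8 to 79.1) between genes. CTCF was absent in mut at 227 sites, or 5.24% (4.62 to 5.95), where 9.86% of all autosomal sites with CTCF and Rad21, and 19.6% of all autosomal CTCF wt peaks, were absent. CTCF was absent in somKO at 169 sites, or 3.90% (3.37 to 4.52), where the same backgrounds were 2.87% and 7.72%. Rad21 was absent in mut at 138 sites, or 3.19% (2.71 to 3.75), against a background of 15.4%, and in somKO at 42 sites, or 0.970% (0.719 to 1.31), against 1.68%.

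Rad21 in mut gave the largest gap between promoter sites and the others. It was absent at 3.19% of promoter sites, 16.7% (16.2 to 17.2) of gene-body sites and 17.3% (16.7 to 17.9) of intergenic sites. Over the 19 autosomes the share was 3.33% ± 2.28 (SD) at promoters and 16.8% ± 4.08 in gene bodies, and it was lower at promoters on 19 of 19. For CTCF in mut the shares were 5.24%, 9.82% (9.41 to 10.2) and 11.3% (10.8 to 11.8), and promoters were below gene bodies on 19 of 19 autosomes. For CTCF in somKO the order was the other way, with 3.90% at promoters, 2.74% (2.53 to 2.98) in gene bodies and 2.74% (2.49 to 3.02) between genes, and promoters were below gene bodies on 3 autosomes. Rad21 in somKO was absent at 0.970%, 1.96% (1.78 to 2.16) and 1.51% (1.33 to 1.72), with promoters below gene bodies on 16 autosomes.

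Some of these gaps depend on what counts as present. When the wt peak had to share 50% of both intervals with the peak of the other list of its own antibody, the CTCF share absent in mut differed between promoters and gene bodies by -0.347 percentage points instead of -4.57. The Rad21 difference in mut was -11.3 instead of -13.5 percentage points under this criterion, which was chosen for Rad21 after seeing the data. It turned to 10.9 percentage points when the CTCF wt interval itself had to share 50% with the Rad21 mut peak, which 63.1% of promoter sites do not do with their own Rad21 wt peak. The CTCF share absent in somKO at promoters was 11.1% when the longer somKO list was cut to the length of the shortest CTCF list. Its difference from gene bodies, 1.16 percentage points, was then 6.77, and it was 4.75 when presence needed 50% of both intervals and -0.216 when the wt CTCF and Rad21 peaks had to share 50% of both.

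Absent sites were mostly weak CTCF sites, so the places were also compared within CTCF quartiles. In the lowest quartile CTCF was absent in mut at 12.6% (11.1 to 14.3) of promoter sites, 34.4% (33.1 to 35.8) of gene-body sites and 42.9% (41.2 to 44.6) of intergenic sites, and Rad21 at 5.31% (4.35 to 6.48), 40.4% (39.0 to 41.8) and 47.8% (46.1 to 49.5). In the quartile above, Rad21 was absent in mut at 3.82% (2.69 to 5.4), 21.2% (20.2 to 22.4) and 21.2% (19.9 to 22.5). In the highest quartile no promoter site lacked CTCF in mut or somKO, which allows a share of up to 0.335% by the upper Wilson limit, and 3 of 1143 lacked Rad21 in mut. For CTCF in somKO the lowest quartile had 9.57% (8.27 to 11.1) absent at promoters, 11.3% (10.4 to 12.2) in gene bodies and 12.3% (11.3 to 13.5) between genes. The higher overall share at promoters in somKO was therefore not seen within that quartile, which held 164 of the 169 promoter sites absent, and promoter sites had more of their number in it (39.6% against 24.1% in gene bodies). In the next quartile 5 of 785 promoter sites and 7 of 5230 gene-body sites lacked CTCF in somKO.

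**Figure D3:**
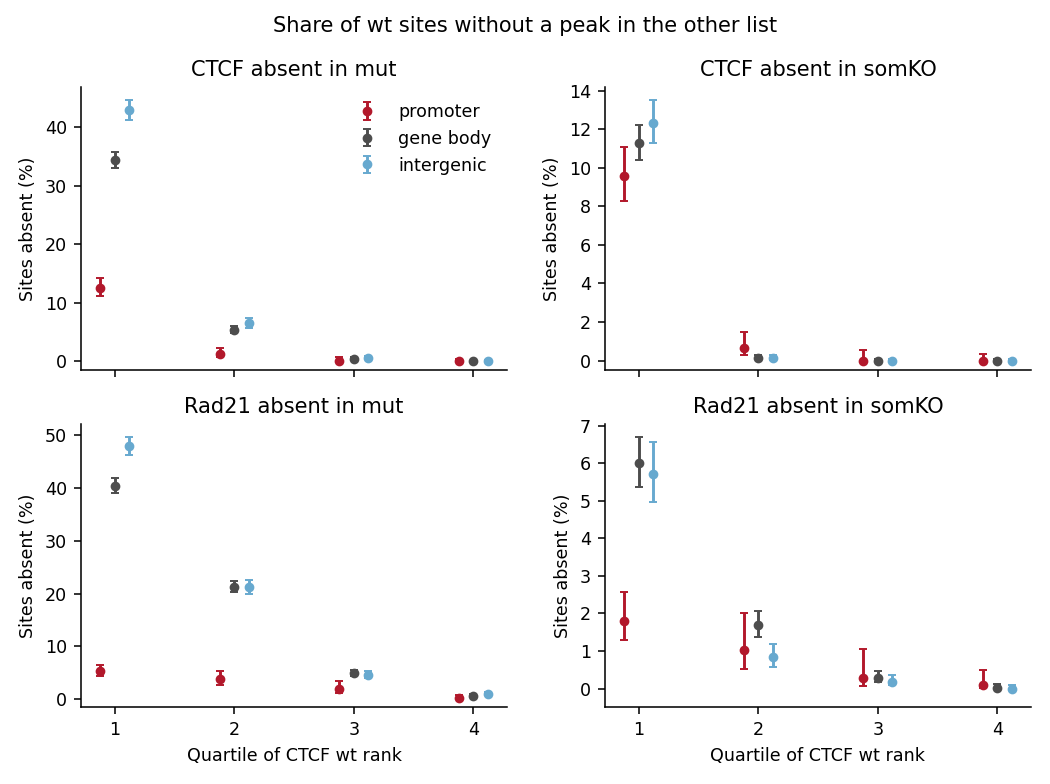
Percentage of wt sites without a peak in the other list (y axis) by quartile of CTCF wt rank (x axis, 1 is the lowest) for promoter, gene-body and intergenic sites, one panel for each list. Points are shares with 95% Wilson intervals, and the y scales differ between panels. In the lowest quartile, Rad21 was absent in mut at 5.31% of promoter sites against 40.4% and 47.8% elsewhere.

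Sites were also ranked by wt Rad21 instead. In the lowest Rad21 quartile of all sites, Rad21 was absent in mut at 7.49% (6.19 to 9.05) of 1308 promoter sites, 45.5% (44.1 to 46.9) of gene-body sites and 51.8% (50.1 to 53.5) of intergenic sites. In the highest it was absent at 0.670%, 1.44% and 2.01%. For CTCF in somKO the shares at promoters and in gene bodies were 6.73% (5.49 to 8.22) and 5.94% (5.33 to 6.62) in the lowest Rad21 quartile. They were 3.88% (2.96 to 5.08) and 1.81% (1.48 to 2.21) in the next, and 1.62% (1 to 2.62) and 0.936% (0.705 to 1.24) in the one after that. In the highest they were 2.01% (1.22 to 3.29) and 2.19% (1.81 to 2.64).

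CTCF was absent from mut at more promoter sites than Rad21 was, by 2.06 percentage points, and in somKO by 2.93 percentage points. On single autosomes CTCF was absent more often in mut on 17 of 19 at promoters, whereas Rad21 was absent more often on 19 of 19 in gene bodies and on 19 of 19 between genes. In somKO the order was alike in the 3 places, with CTCF absent more often on 19 of 19 autosomes at promoters, 16 in gene bodies and 19 between genes. The order at promoters in mut came from the lowest CTCF quartile. In the next quartile Rad21 was absent in mut at 30 of 785 sites and CTCF at 10, and above that at 14 and 1 of 687 sites. The order also turned, to -1.31 percentage points in mut, when the wt CTCF and Rad21 peaks had to share 50% of both intervals, which left 1599 sites.

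The absent sites differed from the present ones in rank and in sequence, and the values here are not matched for rank. Where CTCF was absent in mut, the median CTCF percentile was 11.4, against 59.0 where it was present, and 216 of the 227 sites were in the lowest quartile. Where Rad21 was absent in mut, the median Rad21 percentile was 38.2, against 67.7, the median GC content was 50.7%, against 61.7%, and 23.2% of windows were island-like, against 54.5%. They held the core more often (30.4% against 19.6%). Where CTCF was absent in somKO, 60.9% were island-like and 7.69% held the core, against 53.2% and 20.5% where it was present. Of these absent sites 164 were in the lowest CTCF quartile, where 69.6% of promoter sites were island-like and 12.3% held the core. The higher island-like share was therefore not seen against promoter sites of that quartile.

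Island-like sites kept Rad21 in mut more often also outside promoters. In the lowest CTCF quartile Rad21 was absent in mut at 1.93% (1.29 to 2.88) of 1192 island-like promoter sites and at 13.1% (10.4 to 16.2) of the 521 others. In gene bodies the shares in that quartile were 3.63% (2.09 to 6.23) of 331 island-like sites and 43.1% (41.7 to 44.6) of 4503 others. CTCF in mut had the same order, with 8.31% and 22.5% at promoters, and 11.8% and 36.1% in gene bodies. CTCF in somKO was absent at 8.47% and 12.1% at promoters, and at 13% (9.79 to 17.0) and 11.1% (10.2 to 12.1) in gene bodies, where the intervals overlap. Width and rank of the Rad21 peak move with composition, and their part in these differences was not tested.

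Promoter sites that were present in mut stood higher in the mut lists than in wt, whereas gene-body sites stood slightly lower. The median difference of percentile, mut minus wt, was 3.27 for CTCF at 4101 promoter sites and -1.55 at 18108 gene-body sites, and 3.10 and -0.552 for Rad21. In somKO the differences were 3.72 and 2.89 for CTCF, and 6.89 and 5.66 for Rad21. The percentile was higher in mut at 66.8% of promoter sites for CTCF and at 64.5% for Rad21, against 41.8% and 46.6% of gene-body sites. These values are of sites that were present, and a percentile depends on the other peaks of its list. The places were not matched for wt rank here. Among sites present in mut, the median wt CTCF percentile was 59.0 at promoters and 68.5 in gene bodies. CTCF in wt was read from the site's own peak, whereas the highest overlapping peak was taken in the other list.

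Chromosome 14 had the highest shares of absent sites in mut, at promoters and in gene bodies. Of its 138 promoter sites, CTCF was absent at 15 and Rad21 at 15, or 10.9% for each, the highest of the autosomes for both. Its gene-body sites were also the highest of the autosomes, with 19.5% for CTCF and 25.5% for Rad21 in mut, and 6.76% and 5.17% in somKO. The lowest shares were 1.48% for CTCF and 0.741% for Rad21, both on chromosome 12. In somKO the highest shares at promoters were 5.97% for CTCF on chromosome 16 and 3.15% for Rad21 on chromosome 4. Without chromosomes 3, 4 and 14, where peak numbers changed in steps along the chromosome in earlier results of these data, CTCF was absent in mut at 4.85% of promoter sites and Rad21 at 2.86%.

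**Figure D4:**
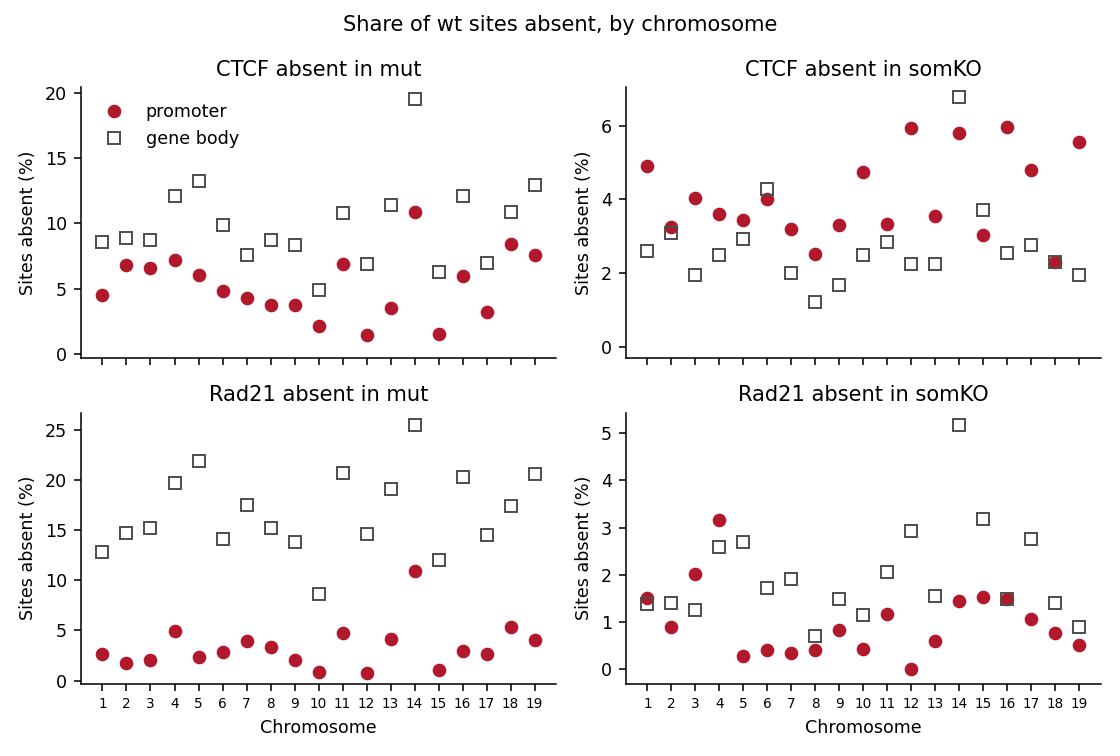
Percentage of wt sites without a peak in the other list (y axis) on each autosome (x axis), for promoter sites (filled) and gene-body sites (open), one panel for each list with its own y scale. For Rad21 in mut all 19 promoter points lie below the gene-body point of their chromosome, and chromosome 14 is highest at 10.9%.

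The sites with the highest wt CTCF scores were present in every list. They were at Nipsnap2, Kmt2a, Igfbp7, Man2b2, Tbx3, Tmem270, Hnrnpdl, Sh3glb1, Ints1 and Gm13275, in that order, all at wt CTCF percentiles of at least 99.9, and none held the exact core. All but Kmt2a, Sh3glb1 and Gm13275 lie on chromosome 5. On that chromosome 23.3% of 348 promoter sites were in the highest 10% of the list, against 19.5% of all promoter sites, and 21.3% of its gene-body sites, against 14.1%. The top site, 4 bp upstream of Nipsnap2, was at percentile 100 for CTCF in all 3 genotypes, and at 89.3 in wt, 83.6 in mut and 91.7 in somKO for Rad21. Kmt2a encodes a histone methyltransferase. Its site, 273 bp upstream, joined the highest CTCF ranks with a middling Rad21 rank of 48.1 in wt, 71.3 in mut and 64.1 in somKO.

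Among these sites, which were chosen for their high wt score, Tbx3 and Igfbp7 had the lowest CTCF percentiles in mut. The others stood at 99.4 or more in mut, some of them slightly below wt. Igfbp7 also had the lowest CTCF percentile in somKO. At Tbx3, a T-box transcription factor gene, the CTCF percentiles of wt, mut and somKO were 99.9, 88.9 and 99.9, and those of Rad21 were 100, 84.5 and 100. At Igfbp7, which encodes a secreted binding protein of insulin-like growth factors, CTCF was at 100, 96.7 and 99.1, and Rad21 at 100, 99.4 and 99.7. At Ints1, a subunit gene of the Integrator complex, Rad21 was at 61.1 in wt, 71.2 in mut and 99.9 in somKO while CTCF was at 99.4 or more. Man2b2, which encodes a lysosomal mannosidase, and Hnrnpdl, for an RNA-binding protein, were at CTCF percentiles of at least 99.8 in all 3 genotypes.

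Of the sites absent from both mut lists, 49 were present in both somKO lists, or 1.13% of the promoter sites. The share of this pattern over all autosomal sites was not computed, so that 1.13% cannot be set against a background. The highest by wt CTCF was 743 bp inside Sssca1, where CTCF was at percentile 71.8 in wt and 72.7 in somKO, and Rad21 at 61.3 and 95.4. The next was 105 bp upstream of Zic1, a transcription factor gene of neural development, with CTCF at 61.5 in wt and 63.7 in somKO and Rad21 at 76.4 and 82.6. Nuggc, with the core, had CTCF at 60.6 and 51.1 and Rad21 at 82.9 and 74.5. The others named by rank were Fam181b, the protocadherin gene Pcdhga11, Sectm1b, Nsa2 of ribosome assembly, the seryl-tRNA synthetase gene Sars, Pigk of GPI anchor attachment, and Oacyl, at wt CTCF percentiles from 58.9 down to 42.6. The site at Sars had a very weak wt Rad21 peak (percentile 0.467) and one at 52.9 in somKO.

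The reverse pattern, absent from both somKO lists and present in both mut lists, was found at 8 sites (0.185%). For this pattern, too, the share over all autosomal sites was not computed. Over all autosomal sites with CTCF and Rad21, absence was also more frequent in mut than in somKO. The shares there were 9.86% and 2.87% for CTCF, and 15.4% and 1.68% for Rad21. The 5 highest of the 8 sites were at Lrrc7, Afap1l2, the Wnt modulator gene Dkk2, the sodium channel gene Scn8a and Fibin. All 5 stood higher for CTCF in mut than in wt, as at Afap1l2 (51.6 in wt and 82.1 in mut) and Fibin (37.5 and 82.5). For Rad21, 4 of them also stood higher in mut, and Dkk2 was at 63.4 in wt and 58.9 in mut. The site at Slitrk6, which encodes a neuronal membrane protein, was 104 bp upstream, 232 bp wide, at percentiles of 30.4 for CTCF and 49.0 for Rad21 in wt, and absent from all 4 lists.

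**Figure D5:**
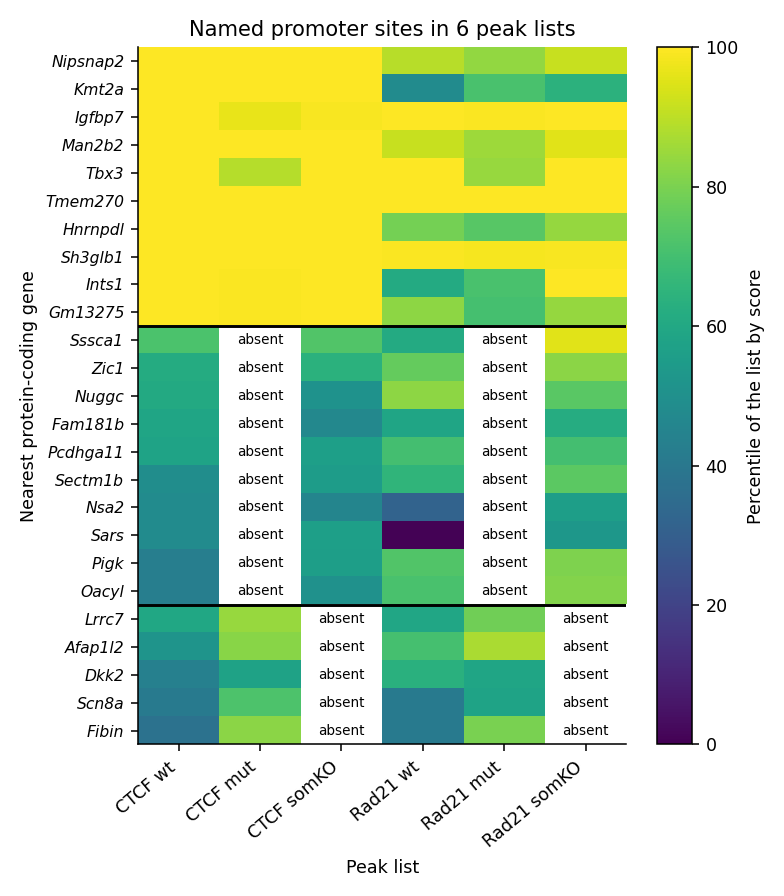
Percentile by score (colour) of 25 named promoter sites (rows) in 6 peak lists (columns); white cells marked absent have no overlapping peak. The upper 10 rows are the highest by wt CTCF, the next 10 the sites absent from both mut lists only and the last 5 those absent from both somKO lists only, so that the white cells follow from how the rows were chosen.

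Among the genes with most sites, those with 3 sites are named first. Of the 256 genes with 2 sites, Rapgef1, Wdr70 and Pop7 were taken for the highest summed wt CTCF score, so that their strong peaks follow from the choice. Twsg1, which encodes a binding protein of bone morphogenetic proteins, and Colec12, a scavenger receptor gene, had 3 sites each. At Twsg1 the wt CTCF percentiles were 70.6, 39.4 and 9.76, and all 3 were present in all lists, although the stronger pair overlapped a single CTCF peak in mut and in somKO. At Colec12 they were 64.5, 38.2 and 11.4, and the weaker pair had no CTCF peak in mut. Rapgef1, an exchange factor gene for Rap proteins, had a site at 99.9 with the core 203 bp upstream and one at 8.92 inside the gene, and the weak one was absent from the CTCF mut list. In somKO both overlapped the same CTCF peak, so that presence of the weak one rests on the width of its neighbour. Pop7, of RNase P, and Wdr70 had 2 sites each, all with CTCF percentiles of at least 92.0 in the 3 genotypes. Over all sites, 183 of 4224 Rad21 wt peaks covered 2 or more promoter sites.

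Genes of the loop machinery held sites at 11 of 30 (36.7%, 21.9 to 54.5), where 21.6% of all gene symbols did. Pds5b and Pds5a, which encode regulators of cohesin release, stood highest, at wt CTCF percentiles of 99.5 and 98.8 and Rad21 percentiles of 99.4 and 97.5. The cohesin subunit gene Smc3 was at 98.3 and 80.4, and the cohesin acetyltransferase gene Esco1 at 97.7 and 70.0. Ctcf was at 93.2 and 84.1, with the site 344 bp from the start of the nearer gene Agrp and within 1 kb of that of Ctcf. Lower ranks were at Zfp143 (66.4 for CTCF), Sgo1 (52.9), Smchd1 (36.4), Smc5 (17.8), Yy1 (17.8), the second site of Pds5b (16.8) and Nipbl (8.92), the cohesin loader gene. The site at Smchd1, the gene deleted or mutated here, was present in all lists, with CTCF percentiles of 36.4, 46.3 and 24.7. Of the 12 sites the one at Smc5 was absent from both mut lists, and the others were present throughout.

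In other gene groups the sites were mostly kept, as they were over all promoter sites. For comparison with the counts below, 21.6% of all autosomal protein-coding gene symbols held a site. Over all promoter sites, CTCF was absent at 5.24% in mut and 3.90% in somKO, and Rad21 at 3.19% and 0.970%. Genes for cytosolic ribosomal proteins held sites at 34 of 80 (42.5%, 32.3 to 53.4), with a median CTCF percentile of 79.2. At Rplp0, Rpl5 and Rpl26 the CTCF percentiles were 99, 98.8 and 98.5, while the Rad21 percentiles were 55.8, 53.2 and 57.2. Of the 37 ribosomal protein sites, CTCF was absent at 1 in mut and 3 in somKO and Rad21 at 1 in mut. Mitochondrial ribosomal protein genes held sites at 22 of 78, among them Mrps33, Mrps16, Mrps2 and Mrpl38, with CTCF at 98.0 to 99.7, and all 23 sites were present in all 4 lists. Their Rad21 percentiles ranged widely, with 64.5 at Mrps33, 31.3 at Mrps16, 30.6 at Mrps2 and 91.5 at Mrpl38.

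Proteasome genes held sites at 15 of 47, with Psmd6 (CTCF 99.4, Rad21 45.5) and Psmc6 (96.1 and 52.0) highest, and all 17 sites were kept. Of aminoacyl-tRNA synthetase genes 16 of 37 held a site, with Rars, Sars2, Mars and Cars2 highest, and CTCF was absent in mut at 2 of 16 sites and Rad21 at 1. Replication-dependent histone genes, which lie close together, held sites at 43 of 67 through 32 sites with a median CTCF percentile of 43.7. The highest were near Hist1h4j (82.4) and Hist1h4c (81.6), and 1 of the 32 lacked CTCF in mut.

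Among genes of cell identity and growth, 6 of 18 immediate and growth response genes held 7 sites, with Egr2 (96.9 for CTCF, 98.7 for Rad21), Egr1 (91.6 and 76.9), Myc (72.6 and 93.5) and Fosl2 (61.4 and 85.4) highest. All 7 were present in all 4 lists. Of fibroblast and matrix genes 6 of 23 held 7 sites, all kept, and Col1a1, the main collagen chain of fibroblasts, was at 95.5 for CTCF and 99.7 for Rad21. Eln, for elastin, was at 98.3 and 86.0, and Col6a2 at 90 and 97.4. Hox genes held sites at 6 of 39, with Hoxa7 at 99.5 and 99.5 and Hoxa5 at 99.3 and 99.8, and all were kept. Other developmental transcription factor genes held sites at 26 of 113, with a low median CTCF percentile of 35.2.

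Imprinted genes held sites at 6 of 27 through 5 sites, with Peg12 highest at 82.2 for CTCF and 60 for Rad21. The shared start region of Sgce and Peg10 was at 59.9 and 54.4, and 1 of the 5 sites lacked CTCF in mut. Clustered protocadherin genes held sites at 23 of 56, with Pcdhb16 (82.0), Pcdhb8 (69.4), Pcdhb15 (67.5) and Pcdhb14 (63.7) highest, and 2 of 23 sites lacked CTCF and 2 lacked Rad21 in mut. Genes named Zfp, for zinc finger proteins, held sites at 106 of 385 (27.5%, 23.3 to 32.2), with Zfp398 (99.8) highest. Of their 116 sites, 10 lacked CTCF in mut, where 5.24% of all promoter sites did. CTCF was absent in somKO at 7 of them, and Rad21 at 6 in mut and 2 in somKO. Olfactory receptor genes, which fibroblasts do not use, held sites at 5 of 1127 (0.444%, 0.190 to 1.03).

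SmcHD1 peaks in wt cells overlapped promoter sites at 288 of 4328, or 6.65% (5.95 to 7.44), where 2.13% of all autosomal sites with CTCF and Rad21 had one. The share was 1.43% (1.27 to 1.60) in gene bodies and 1.77% (1.57 to 2.00) between genes. In mut cells, which lack SmcHD1, a SmcHD1 peak overlapped 17 promoter sites, 0.393% (0.245 to 0.628), where the background was 0.107%. Of the 17, 12 also had a SmcHD1 peak in wt. The 5 sites with the highest wt SmcHD1 score, at Gm10722, Gm10715, Dagla, Bad and Epc2, all had a SmcHD1 peak in mut as well, with mut scores from 176 to 1938. Gm10722 and Gm10715 both lie near the beginning of chromosome 9, Gm10722 at chr9:3000128-3001127 at the very start of the assembled sequence.

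Most sites with a wt SmcHD1 peak were present in all lists, as were most without one. CTCF was absent in mut at 6 of 288 (2.08%, 0.958 to 4.47), against 5.47% (4.81 to 6.21) of the 4040 promoter sites without one, and Rad21 at 5 of 288 (1.74%, 0.744 to 4.00), against 3.29% (2.78 to 3.89). The intervals did not overlap for CTCF and overlapped for Rad21. In somKO CTCF was absent at 1.74% (0.744 to 4.00) and 4.06% (3.49 to 4.71), and Rad21 at 0.694% (0.191 to 2.50) and 0.990% (0.728 to 1.35).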

How the data were processed

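The 52 libraries described in the labels include 24 that gave the 8 peak lists of CTCF, Rad21 and SmcHD1. Libraries of H3K27me3 and of input DNA were not used here. The authors aligned reads with Bowtie2 to an mm10 index in which strain variants were masked, merged the libraries of a group, and called narrow peaks with MACS2 (q below 0.05) on reads of both alleles. Versions and the use of inputs in peak calling were not given in the sources used here. The deposited score of each peak was read as 10 times -log10 of q, since the lowest score in each list was 13. This is inferred from the values, and the score was used for ranking and, in an alternative, as a lower limit.

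Gene starts were the gene 5′ ends of GENCODE M21, and sequence came from the RefSeq copy of mm10 (GRCm38.p6), whose build the peak positions fit. Overlaps, ranks and motifs were computed in Python 3.11.15 with pandas 2.3.3 and pysam 0.24.0, and the overlap step was tested on simulated data. Where several peaks overlapped a site, the highest score was used. CTCF motifs were searched over 1000 bp, because peak summits are not given, and other features over 300 bp.

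The members, gene lists and comparisons were chosen with earlier results of these data known. Named sites were: the 10 highest by wt CTCF score, the 10 highest absent from both mut lists alone, the 5 highest absent from both somKO lists alone, any absent from all 4, genes with most sites, the 5 highest for SmcHD1, the sites at the 1 kb limit, and loop machinery genes, with up to 4 for other lists. Ties among the genes with most sites were broken by the highest summed wt CTCF score. The sequences with the core, the island-like class and the division by Rad21 rank were chosen after values were seen. Alternatives were other distances, starts, overlap criteria, score limits and list lengths.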

Additional observations from a re-analysis of the deposited data

How the results depend on the processing

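The number of sites was 1599 instead of 4328 when the wt CTCF and Rad21 peaks had to share 50% of both, and from 2932 to 6462 under 6 other settings. With that wt overlap, CTCF was absent in mut at 2.63% and in somKO at 1.44%, and Rad21 at 3.94% and 1.38%. With a presence that needs 50% of both peaks the shares were 20.9% and 17.4% for CTCF and 68.8% and 75.9% for Rad21, and with midpoints within 500 bp 8.18%, 6.93%, 26.8% and 32.7%. Both settings set a CTCF interval against a Rad21 peak, and 63.1% and 22.0% of sites fail them with their own Rad21 wt peak. Setting the Rad21 wt peak against the other Rad21 list at 50% of both, chosen after seeing the data, gave 20.8% in mut and 23.2% in somKO. Reading Rad21 over its wt peaks gave 2.50% in mut. CTCF scores of at least 50 gave 3.78% and 2.17% for CTCF. Lists cut to the shortest of their antibody gave 11.1% for CTCF and 1.89% for Rad21 in somKO, whose lists are longest. Starts within 500 bp gave 4.57% for CTCF in mut, and starts within 2 kb and transcript 5′ ends gave 5.35% and 5.46% for Rad21 in mut. The cause was not tested where construction does not show it.

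Promoter minus gene body, the difference reversed for CTCF in somKO under the 50% wt overlap (-0.216 percentage points), for Rad21 in mut under the 50% presence (10.9), and for Rad21 in somKO under the 50% presence (18.1) and the midpoint setting (6.64). CTCF minus Rad21 at promoters reversed in mut under the 50% wt overlap (-1.31), the 50% presence (-47.9) and the midpoint setting (-18.6), and in somKO under the last pair (-58.5 and -25.8). The difference for CTCF in mut reversed under none of 9 alternatives, from -6.96 to -0.347.

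No paired analysis was possible because each list merges all replicates of its group, and leaving out replicates was not run for the same reason. Without depth or counts, absence says only that no peak passed the threshold.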

Other observations

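The same rule applied to chromosome X gave 102 promoter sites. CTCF was absent at 8 of them in mut (7.84%, 4.03 to 14.7) and at 5 in somKO (4.90%, 2.11 to 11). Rad21 was absent at 19 in mut (18.6%, 12.3 to 27.3) and at 3 in somKO (2.94%, 1.01 to 8.29). A SmcHD1 wt peak overlapped 31 of the 102 (30.4%, 22.3 to 39.9), and 28 of 521 gene-body sites on X (5.37%, 3.74 to 7.66). At these gene-body sites Rad21 was absent in mut at 22.8% (19.4 to 26.6) and CTCF at 9.98% (7.69 to 12.9). The lists hold the reads of both X chromosomes together.

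The 686 promoter CTCF wt peaks without a Rad21 wt peak overlapped a Rad21 peak in mut at 317 (46.2%, 42.5 to 50) and in somKO at 373 (54.4%, 50.6 to 58.1). Of the gene-body CTCF wt peaks without Rad21, 15.4% (14.7 to 16.1) did in mut and 40.6% (39.7 to 41.5) in somKO. At the promoter peaks CTCF was absent in mut at 23.6% (20.6 to 26.9) and in somKO at 16.9% (14.3 to 19.9). Their windows were island-like in 27.4% of cases, and 25.5% held the exact CTCF core.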
